A study of Mus musculus with 12 samples.

Results

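The genes described here are 9 receptors for neuromodulators of the hippocampus, which are Chrm1, Chrm3, Htr1a, Htr2c, Htr4, Drd1, Adora1, Cnr1 and Adra1a. They were found by their gene symbols in a UMI count table of 32546 genes, and all 9 were present. The table came from photo-isolation chemistry (PIC), in which a caged primer for reverse transcription is spread over a tissue section and light frees it only in the region to be read, so that cDNA of that region alone enters a CEL-seq2 library. CA1, CA3 and DG of the hippocampus of male ICR mice aged 8 weeks were each read in 4 histological conditions, with 4 replicates of each region and condition, giving 48 replicates in 12 libraries. The mice of all groups were of this 1 outbred strain, and the labels name no mutation, transgene or drug. Fresh-frozen sections were permeabilized either with 0.1 N HCl for 5 min or with TE at 70 °C for 1 h. Formalin-fixed frozen sections and formalin-fixed paraffin sections came from tissue fixed with 4% PFA and were both permeabilized with TE. The sample titles name the third region CA3 where the series' design text has CA2, and the titles were followed.

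The total number of UMIs was 127253 to 933756 per replicate in fresh-frozen sections with HCl, 294445 to 1111804 in fresh-frozen sections with TE, 52800 to 307145 in formalin-fixed frozen sections and 35932 to 223055 in paraffin sections. Replicate 4 had the fewest UMIs in all 12 libraries. Since each library pooled the 4 barcoded replicates of 1 region and condition, library and group cannot be told apart, and as no label ties a replicate to a mouse, p-values measure only the spread between replicates. The labelled regions were checked by summed levels of marker genes in CPM (the UMIs of a gene over all UMIs of the replicate, scaled to 1e6). With TE in fresh-frozen tissue, 5 markers of CA1 summed to 777 to 1263 CPM in CA1 and 93.5 to 247 CPM in DG, 6 markers of CA3 to 995 to 1401 CPM in CA3 and 259 to 520.0 CPM in CA1, and 6 markers of DG to 1448 to 1829.9 CPM in DG and 187 to 284 CPM in CA1. In all 4 conditions the range of each region's markers in its own region lay above their range in the other 2 regions. The median sum of 5 CA2 markers was higher in DG than in CA3 in all 4 conditions, from 521 against 345 CPM with HCl to 1194 against 699.8 CPM in formalin-fixed frozen sections (medians), and Map3k15 among them was at 0 in 1 to 3 regions of every condition but HCl. All of these regions are mixtures of cells, and fewer cells of a type and less RNA per cell cannot be told apart.

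Neuromodulators reach the hippocampus through long axons from the septum, the raphe nuclei and the brainstem, or are made locally, as adenosine and endocannabinoids are, and they act mostly on receptors coupled to G proteins. Acetylcholine acts on muscarinic receptors, serotonin on a large family that holds inhibitory and excitatory members, and dopamine and noradrenaline on their own families. Adenosine and endocannabinoids are known above all for dampening transmitter release from presynaptic terminals through A1 and CB1 receptors. The messenger RNA of a receptor lies mainly in the cell bodies of the neurons that make it, and the receptor itself may sit on axons that end elsewhere.

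Gene positions are those of GENCODE M21 on GRCm38. Chrm1 (ENSMUSG00000032773) spans chr19:8663789-8683587 on the plus strand, and Chrm3 (ENSMUSG00000046159) spans chr13:9875486-10360847 on the minus strand. Chromosome 13 also holds Htr1a (ENSMUSG00000021721) at chr13:105443639-105448122 on the plus strand, a gene of 1 exon, and Drd1 (ENSMUSG00000021478) at chr13:54051183-54055705 on the minus strand. Htr2c (ENSMUSG00000041380) lies at chrX:146962513-147197277 on the plus strand. Adora1 (ENSMUSG00000042429) lies at chr1:134199223-134235431 on the minus strand, Cnr1 (ENSMUSG00000044288) at chr4:33924593-33948831 on the plus strand and Adra1a (ENSMUSG00000045875) at chr14:66635251-66771168 on the plus strand. All 9 are annotated as protein-coding, and their UMIs were counted over exons. The exons of Adora1 share 1162 bases with Mybph on the opposite strand and those of Chrm1 share 329 bases with Gm22820, also on the opposite strand. The counting command that the study gives names no strand setting, and neither Mybph nor Gm22820 was among the genes counted. Reads in these stretches may have been left out or assigned to the receptor gene.

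Of the 9 receptors, 3 differed between the same 2 regions in 3 of the 4 conditions, as described below for each, and the bases in front of these genes are shown as their promoters. They were read from the RefSeq promoter table of GRCm38.p6, which held 6 of the 9 genes and lacked Chrm1, Htr4 and Adra1a. Each runs 5′ to 3′ on the strand of the gene and ends before the first base of both the RefSeq and the GENCODE gene. They lie at chr1:134235458-134235707 for Adora1 (minus strand, at the one of 2 RefSeq starts nearer to the GENCODE start), chr13:10360848-10361053 for Chrm3 (minus strand) and chr13:105443443-105443638 for Htr1a (plus strand). Capitals mark matches to the GC box GGGCGG on either strand.
Adora1: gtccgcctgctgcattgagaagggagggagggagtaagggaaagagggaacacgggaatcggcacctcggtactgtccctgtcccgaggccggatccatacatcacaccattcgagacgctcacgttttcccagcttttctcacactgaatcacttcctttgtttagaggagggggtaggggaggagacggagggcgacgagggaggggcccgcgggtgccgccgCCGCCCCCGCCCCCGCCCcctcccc
Chrm3: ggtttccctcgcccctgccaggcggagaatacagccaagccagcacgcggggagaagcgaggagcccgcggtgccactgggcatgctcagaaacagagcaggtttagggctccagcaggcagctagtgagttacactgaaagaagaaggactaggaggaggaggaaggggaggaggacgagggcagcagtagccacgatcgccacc
Htr1a: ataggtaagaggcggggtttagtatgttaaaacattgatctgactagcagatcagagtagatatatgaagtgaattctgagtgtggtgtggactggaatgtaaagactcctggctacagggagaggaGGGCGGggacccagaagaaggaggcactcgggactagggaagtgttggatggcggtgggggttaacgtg
Over the full windows of 300 bases around the RefSeq start, the sequence in front of Adora1 held 3 GC boxes side by side, that of Htr1a held 1 and that of Chrm3 held none. A GC box was present in 35.7% of the 32851 promoters of the table. CCAAT (37.4% of all promoters), the core TGACG of the cAMP response element (20.8%), TATAAA (13.6%) and the E-box CACGTG (7.15%) matched none of the 3 windows on either strand. The content of G and C was 66.0% in front of Adora1, 57.3% in front of Chrm3 and 52.3% in front of Htr1a. These matches describe the letters alone, and no measurement here bears on binding at them.

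Over all 48 replicates the table held 6911 UMIs of Chrm1, 2526 of Chrm3, 550 of Htr1a, 328 of Htr2c, 171 of Htr4, 219 of Drd1, 4966 of Adora1, 3265 of Cnr1 and 277 of Adra1a. Chrm3, Adora1 and Cnr1 had a UMI in all 48 replicates and Htr4 in 31. The region with the highest mean CPM was the same in all 4 conditions for 4 receptors, which were Htr1a and Cnr1 with CA1, Adora1 with CA3 and Htr4 with DG. This count is a description of means, and several of these means differed by less than the spread between replicates, as given for each gene. When the 12 groups of a receptor were ordered by their means, neighbouring groups had separate replicate ranges at 3 of the 11 steps for Chrm1, at 1 for Chrm3, at 1 for Adora1 and at none for the other 6. UMIs were counted near the 3′ ends of transcripts and were not divided by length, so that levels are compared within a gene and not between genes.

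**Figure D1:**
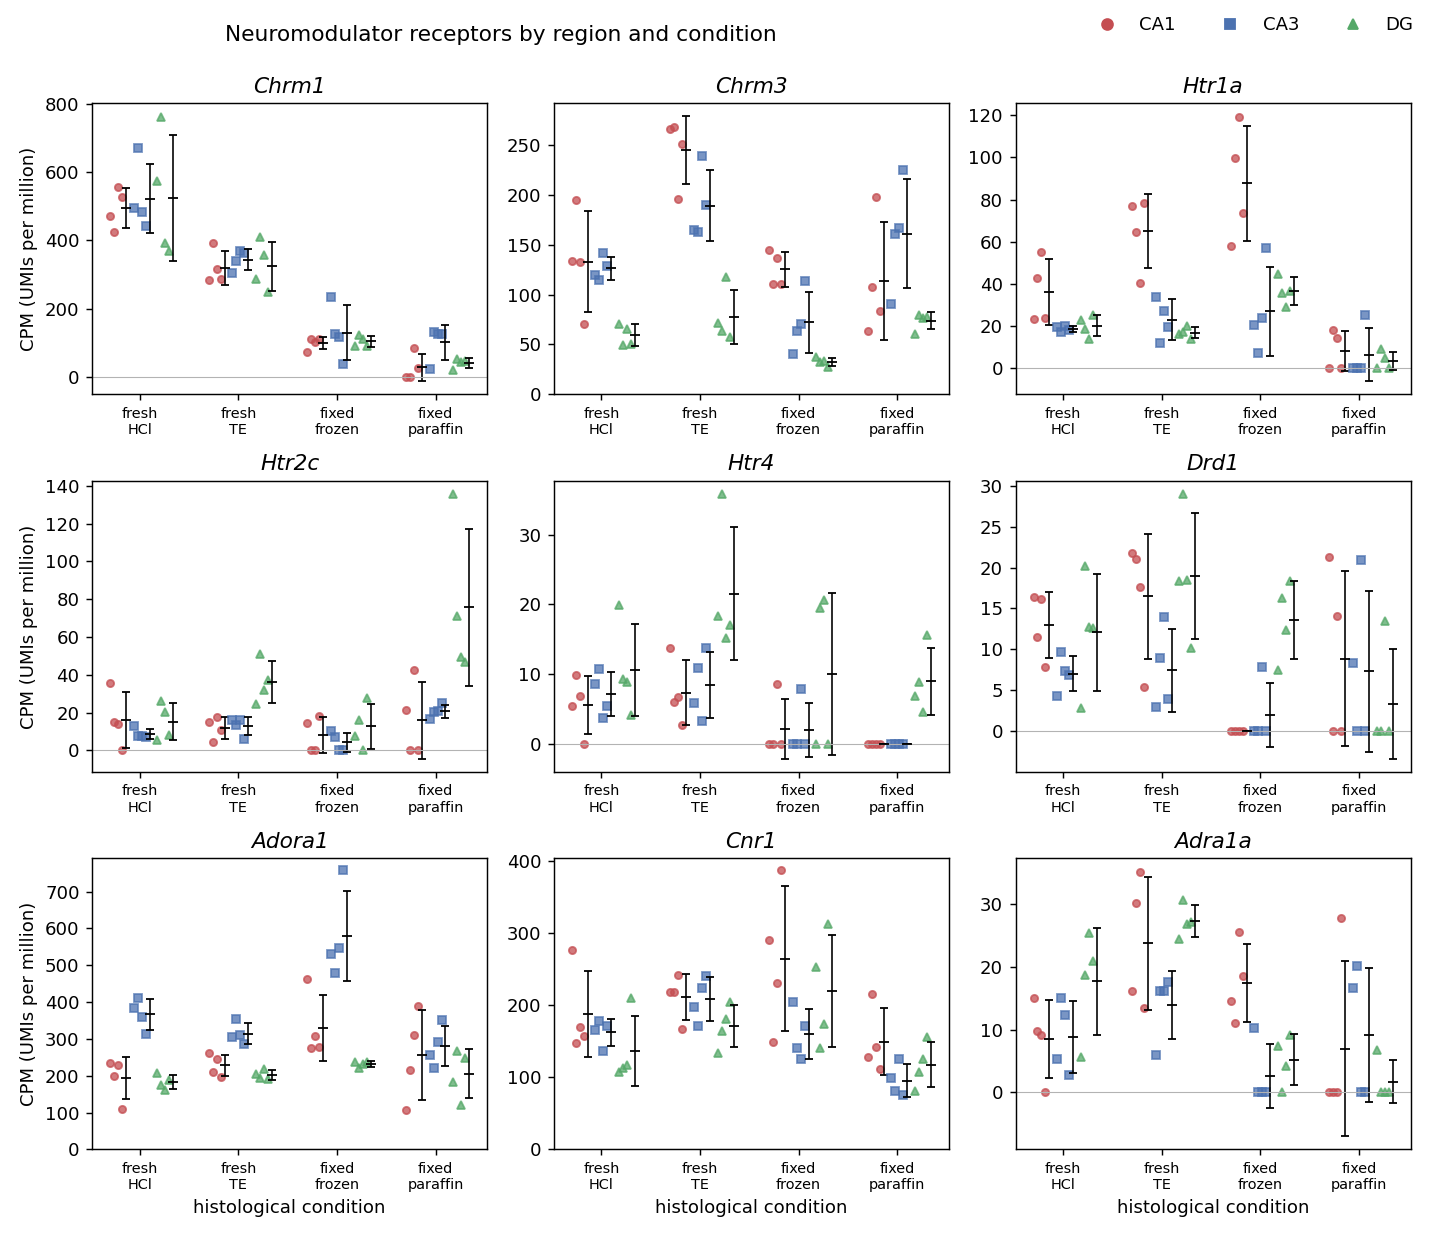
CPM of each receptor (vertical axes, scaled separately for each gene) in the 4 histological conditions (horizontal axes), with 1 point per replicate, circles for CA1, squares for CA3 and triangles for DG, and the mean with its SD (n = 4) as a bar. Htr1a stood highest in CA1 and Adora1 in CA3 in the 2 fresh-frozen conditions and in formalin-fixed frozen sections, Chrm3 lay lowest in DG, and Chrm1 was lower in fixed than in fresh-frozen tissue in every region.

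Regions were compared within each condition to ask which receptors differ between CA1, CA3 and DG, with edgeR's quasi-likelihood test on 8 replicates. A gene was tested when it had at least 10 UMIs over those replicates, and was called when the p adjusted over all genes tested by the Benjamini-Hochberg method was under 0.05. Between CA1 and DG, 2 of 9 receptors tested were called with HCl, where 17.0% of all 14893 genes tested were called, 4 of 9 with TE in fresh-frozen sections (10.1% of all genes tested) and 2 of 9 in formalin-fixed frozen sections (8.14%). Between CA3 and DG, the calls were 2 of 9 with HCl (8.99% of all genes tested), 4 of 9 with TE in fresh-frozen sections (7.91%) and 1 of 8 in formalin-fixed frozen sections (9.27%). Between CA1 and CA3, 2 of 9 were called with HCl (9.13% of all genes tested), 1 of 9 with TE in fresh-frozen sections (4.40%) and 2 of 5 in formalin-fixed frozen sections (7.20%). With TE in fresh-frozen sections the called receptors were Chrm3, Htr2c and Htr4 in both comparisons with DG, with Htr1a for CA1 over DG and Adora1 for CA3 over DG. The 9 receptors were chosen with earlier results of these data known. The counts beside the shares of all genes are therefore a description and not a test, and several calls depended on the processing, as given for each gene.

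In paraffin sections no receptor was called between any 2 regions, and only 5 of the 9 had enough UMIs to be tested. Of all genes tested there, 3.29% were called between CA1 and DG, 3.21% between CA3 and DG and 2.36% between CA1 and CA3. At an unadjusted p under 0.05, 1 receptor passed between CA1 and DG, 3 between CA3 and DG and 1 between CA1 and CA3, and DESeq2 called none in any of the 3. Differences between regions were not detectable at this depth for Htr1a, Htr4, Drd1 and Adra1a, which had 5, 4, 7 and 6 UMIs over all 12 paraffin replicates.

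**Figure D2:**
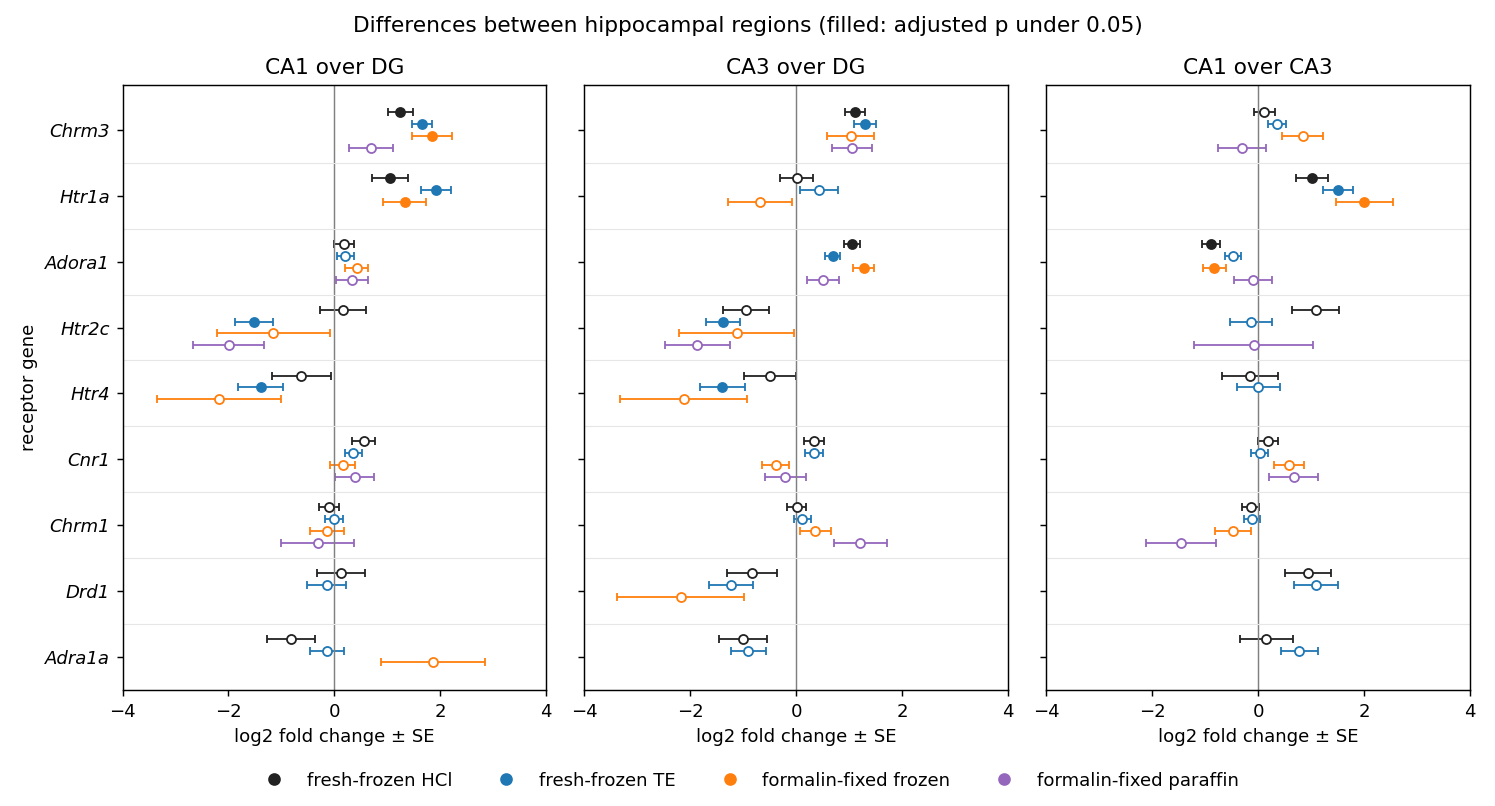
Log2 fold change with its standard error (horizontal axes) of each receptor (vertical axis) between CA1 and DG, CA3 and DG, and CA1 and CA3, with 1 colour per histological condition; filled points have an adjusted p under 0.05 and receptors with fewer than 10 UMIs, or with none in a region, have no point. The 3 filled points of Chrm3 and of Htr1a lie right of 0 for CA1 over DG, and the 3 of Adora1 lie right of 0 for CA3 over DG.

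Chrm3 encodes the M3 muscarinic receptor, which couples to Gq and raises intracellular calcium. It was higher in CA1 than in DG in both fresh-frozen conditions and in formalin-fixed frozen sections. In fresh-frozen sections with TE the CPM of the 4 replicates were 266, 268, 196 and 251 in CA1, 165, 163, 239 and 189.5 in CA3 and 71.2, 63.0, 117 and 57.7 in DG. All 4 DG replicates lay below all replicates of CA1 and CA3, while CA1 and CA3 overlapped. CA1 exceeded DG by 1.66 ± 0.20 on the log2 scale, as all fold changes below are given (a 3.16-fold difference, adjusted p = 7.23e-08) and that of CA3 over DG was 1.31 ± 0.20 (2.47-fold, adjusted p = 5.21e-05). With HCl the values were 134, 195, 132 and 70.7 in CA1, 120.1, 115, 142 and 129 in CA3 and 71.0, 49.6, 66.0 and 50.2 in DG. Here DG again lay below all of CA3, and the lowest CA1 value, that of replicate 4 with 9 UMIs, fell just under the highest DG value. Both differences were called, with 1.25 ± 0.23 for CA1 over DG (adjusted p = 9.95e-05) and 1.11 ± 0.19 for CA3 over DG (adjusted p = 0.00031).

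Formalin-fixed frozen sections had 145, 111, 136 and 111 CPM of Chrm3 in CA1, 40.7, 63.5, 70.5 and 114 in CA3 and 37.3, 32.6, 33.0 and 27.5 in DG. All replicates of CA1 and CA3 lay above all of DG, and CA1 and CA3 overlapped. CA1 exceeded DG by a log2 fold change of 1.85 ± 0.38 (adjusted p = 6.82e-05), and CA3 over DG was 1.03 ± 0.45 without passing the test (adjusted p = 0.15). In paraffin sections the values were 64.0, 108, 198 and 83.5 in CA1, 91.0, 161, 167 and 226 in CA3 and 61.0, 80.0, 76.2 and 77.8 in DG. All 4 CA3 replicates again exceeded DG, at 1.06 ± 0.38 (adjusted p = 0.117), while CA1 overlapped DG, at 0.69 ± 0.42 (adjusted p = 0.49). CA1 and CA3 themselves did not pass the test in any condition, with log2 fold changes of CA1 over CA3 from -0.30 ± 0.45 in paraffin sections to 0.85 ± 0.39 in formalin-fixed frozen sections. In the conditions other than paraffin, CA1 over DG kept its call under each alternative processing and without any single replicate. The call for CA3 over DG with TE in fresh-frozen sections was lost when the replicates rich in choroid plexus markers, described with Htr2c, were left out (1.78 ± 0.42, adjusted p = 0.0515).

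Chrm1 encodes the M1 receptor, the main muscarinic receptor of forebrain pyramidal neurons, and it too couples to Gq. In contrast to Chrm3 it passed no test between regions. It had 284, 392, 317 and 286 CPM in CA1, 304, 338, 369 and 363 in CA3 and 287, 409, 356 and 248 in DG with TE in fresh-frozen sections. The 3 regions overlapped, and the log2 fold changes were -0.01 ± 0.16 for CA1 over DG, 0.12 ± 0.16 for CA3 over DG and -0.11 ± 0.16 for CA1 over CA3. With HCl the means were 494 ± 58.4 CPM in CA1 (SD, n = 4), 522 ± 102 in CA3 and 524 ± 183 in DG, and the corresponding fold changes were -0.11 ± 0.19, 0.01 ± 0.19 and -0.14 ± 0.16. Formalin-fixed frozen sections had means of 99.0 ± 18.1, 129 ± 80.7 and 104 ± 16.4 CPM in the same order. In paraffin sections the spread was wider for its level, with 0, 0, 84.8 and 27.8 CPM in CA1, 24.8, 131, 125 and 125 in CA3 and 20.3, 53.3, 44.8 and 46.7 in DG. CA3 had the 3 highest values, and its replicate 1 lay among those of DG. CA3 over DG was 1.21 ± 0.50 (adjusted p = 0.189), and it was 1.62 ± 0.50 with an adjusted p of 0.0338 when CA3 replicate 1 was left out, but 0.62 ± 0.60 with an adjusted p of 0.778 without the replicates rich in choroid plexus markers, described with Htr2c.

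Htr1a encodes the serotonin receptor 1A, which couples to Gi and hyperpolarizes pyramidal neurons through potassium channels. It was higher in CA1 than in both CA3 and DG in 3 conditions. Its CPM with TE in fresh-frozen sections were 76.9, 64.8, 40.5 and 78.3 in CA1, 33.9, 11.7, 26.8 and 19.5 in CA3 and 16.3, 17.0, 20.1 and 13.6 in DG. Every CA1 replicate exceeded every replicate of the other 2 regions, and CA3 and DG overlapped. CA1 over DG was 1.92 ± 0.29 (3.79-fold, adjusted p = 6.45e-06), CA1 over CA3 was 1.51 ± 0.29 (2.84-fold, adjusted p = 0.00105) and CA3 over DG was 0.43 ± 0.36 without passing the test (adjusted p = 0.589). In formalin-fixed frozen sections the same regions had 57.9, 99.5, 119 and 73.8 CPM in CA1, 20.4, 7.06, 23.5 and 56.8 in CA3 and 44.7, 35.8, 28.9 and 36.7 in DG. CA1 again lay above all replicates of CA3 and DG, from 4 to 18 UMIs per CA1 replicate. CA1 was 4.01-fold higher than CA3 (adjusted p = 0.00538), and the log2 fold change was 1.33 ± 0.41 for CA1 over DG (adjusted p = 0.0182).

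With HCl Htr1a had 23.3, 42.6, 55.2 and 23.6 CPM in CA1, 19.3, 17.1, 19.8 and 17.8 in CA3 and 22.7, 18.6, 14.0 and 25.1 in DG. Replicates 2 and 3 of CA1 stood well above DG, whereas replicates 1 and 4 lay within its range. The difference was called at 1.05 ± 0.35 for CA1 over DG (adjusted p = 0.0287) and 1.02 ± 0.30 for CA1 over CA3 (adjusted p = 0.0271). With TE in fresh-frozen sections the only alternative to end a call was the one that left out the replicates rich in choroid plexus markers, for CA1 over DG (2.20 ± 0.64, adjusted p = 0.0775). With HCl and in formalin-fixed frozen sections more alternatives did. DESeq2 gave adjusted p-values of 0.137 and 0.0779 with HCl and of 0.0986 and 0.0760 in formalin-fixed frozen sections, for CA1 over DG and CA1 over CA3. With HCl, CA1 over DG had an adjusted p of 0.0765 without CA1 replicate 2, 0.234 without CA1 replicate 3, 0.0674 without DG replicate 2 and 0.143 without DG replicate 3, and CA1 over CA3 of 0.0839 without CA1 replicate 2, 0.238 without CA1 replicate 3 and 0.0513 without CA3 replicate 3. In formalin-fixed frozen sections, CA1 over DG had 0.0903 without CA1 replicate 2, 0.125 without CA1 replicate 3 and 0.0646 without DG replicate 3, and CA1 over CA3 had 0.0503 without CA1 replicate 3 and 0.0765 without CA3 replicate 2. Over all alternatives of these 4 comparisons the log2 fold change lay between 0.73 and 2.38.

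Htr2c encodes the serotonin receptor 2C, which couples to Gq and is also abundant in the choroid plexus, the epithelium that makes cerebrospinal fluid. Fresh-frozen sections with TE had 14.9, 4.52, 17.6 and 10.8 CPM in CA1, 16.2, 13.5, 16.1 and 5.86 in CA3 and 24.4, 51.1, 31.9 and 37.4 in DG. All 4 DG replicates lay above all replicates of CA1 and CA3. CA1 over DG was -1.52 ± 0.35 (2.86-fold lower in CA1, adjusted p = 0.00256) and CA3 over DG was -1.38 ± 0.33 (2.60-fold lower in CA3, adjusted p = 0.00549, and 0.0641 without DG replicate 2). In paraffin sections DG also stood apart, with 136, 71.1, 49.3 and 46.7 CPM against 21.3, 0, 42.4 and 0 in CA1 and 16.5, 20.1, 20.9 and 25.1 in CA3. Neither difference passed the test there, at 3.99-fold lower in CA1 and 3.65-fold lower in CA3 (adjusted p = 0.0768 for both), although CA1 over DG had an adjusted p of 0.0397 without CA1 replicate 3. With HCl, DG had 5.68, 26.4, 20.3 and 8.37 CPM, CA1 had 35.6, 14.8, 13.8 and 0 and CA3 had 12.9, 7.50, 7.41 and 6.84. These values overlapped, and the highest of them was CA1 replicate 1. In formalin-fixed frozen sections 9 UMIs of Htr2c came from DG, at a mean of 12.8 ± 11.9 CPM (SD, n = 4), against 2 UMIs from CA1 and 2 from CA3.

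Markers of the choroid plexus moved with some of these values. The summed CPM of 7 such markers, of which Ttr was the most abundant, were 2653, 2206, 2735 and 61.1 in the 4 DG replicates with TE in fresh-frozen sections, 41.3 to 359 in CA1 and 162 to 1112 in CA3. In DG replicate 4, where these markers summed to 61.1 CPM, Htr2c was 37.4 CPM, between the values of the DG replicates rich in them. In paraffin sections DG replicate 1 had 9098 CPM of these markers and the highest Htr2c, 136 CPM, and the other 3 DG replicates had 44.8 to 249 CPM of markers and 46.7 to 71.1 CPM of Htr2c. With HCl the marker sums were 3328, 226, 245 and 519 CPM in CA1 and 241, 2379, 92.7 and 285 CPM in DG, and in both regions the replicate with the largest sum also had the most Htr2c. In CA3 of formalin-fixed frozen sections the marker sums reached 2017 CPM, and Htr2c was 0 to 10.2 CPM. In CA3 of paraffin sections they reached 1159 CPM, and Htr2c was 16.5 to 25.1 CPM. The part of these markers in the values with HCl was not tested beyond leaving replicates out. Leaving out the 9 replicates with over 1000 CPM of these markers left 1 DG replicate with TE in fresh-frozen sections, which was assumed to vary like the other regions. The log2 fold changes there were then -1.61 ± 0.63 for CA1 over DG (adjusted p = 0.243) and -1.47 ± 0.63 for CA3 over DG (adjusted p = 0.413). In paraffin sections they became -1.44 ± 0.78 and -1.41 ± 0.77. With HCl, CA1 over CA3 went from 1.09 ± 0.44 to 0.49 ± 0.50. Folr1 and Aqp1 were at 0 in DG in paraffin sections, and no choroid plexus marker was at 0 in DG in fresh-frozen sections.

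**Figure D3:**
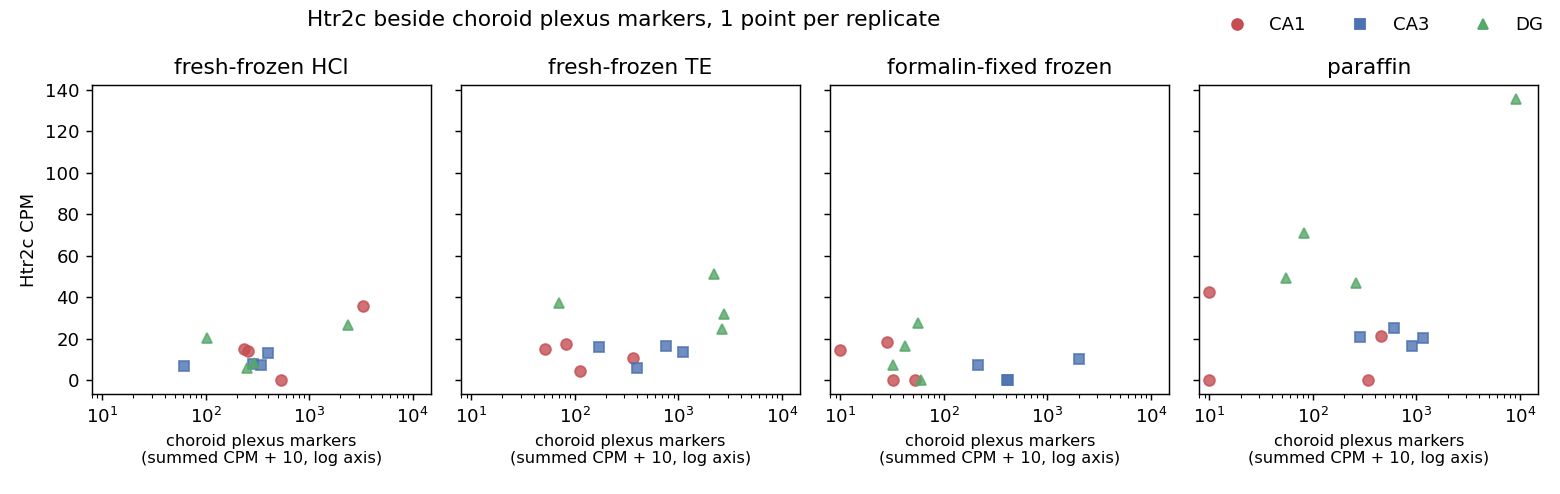
CPM of Htr2c (vertical axis) against the summed CPM of 7 choroid plexus markers plus 10 (horizontal axis, log scale), with 1 panel per histological condition and 1 point per replicate, circles for CA1, squares for CA3 and triangles for DG. DG replicate 4 with TE in fresh-frozen sections has 37.4 CPM of Htr2c at the lowest marker sum of its region, and paraffin DG replicate 1 has the highest value on both axes.

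Htr4 encodes the serotonin receptor 4, which couples to Gs and raises cyclic AMP. The gene (ENSMUSG00000026322) lies at chr18:62324204-62496577 on the plus strand of GRCm38. Its level with TE in fresh-frozen sections was 13.8, 6.03, 6.75 and 2.70 CPM in CA1, 5.90, 10.8, 3.22 and 13.7 in CA3 and 18.3, 35.8, 15.1 and 17.0 in DG. DG lay above both other regions in all 4 replicates, and its replicate 2, with 21 UMIs, was the highest. CA1 over DG was -1.39 ± 0.43 (adjusted p = 0.0284) and CA3 over DG was -1.39 ± 0.42 (adjusted p = 0.0374). Without DG replicate 2 the adjusted p-values were 0.260 and 0.292. The call for CA1 over DG was also lost without CA1 replicate 2, 3 or 4 (adjusted p = 0.0807, 0.0715 and 0.0686), that for CA3 over DG without CA3 replicate 1 or 3 or DG replicate 1 (adjusted p = 0.0769, 0.139 and 0.0520), and both with DESeq2 (adjusted p = 0.0974 and 0.0794). Without the replicates rich in choroid plexus markers, which left 1 DG replicate, the 2 log2 fold changes were -1.07 ± 0.85 and -1.28 ± 0.93. With HCl the means were 5.55 ± 4.12 CPM in CA1 (SD, n = 4), 7.12 ± 3.13 in CA3 and 10.6 ± 6.62 in DG, with no call. In fixed tissue Htr4 was sparse. Formalin-fixed frozen DG held 11 UMIs against 1 each in CA1 and CA3, and paraffin DG held 1 UMI in each of its 4 replicates against none in all 8 replicates of CA1 and CA3. A count of 0 allows up to 14.3 CPM over the 4 replicates of paraffin CA1 and 9.75 CPM over those of CA3, which is not below the mean of 8.93 CPM in DG. These limits cover counting error only. The 3 markers of mossy cells, excitatory neurons of the hilus, summed to 67.9 to 112 CPM in DG and 6.89 to 16.2 CPM in CA1 with TE in fresh-frozen sections, with Drd2 at 0 in both, and their part in the values of Htr2c and Htr4 was not tested.

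Drd1 encodes the D1 dopamine receptor, which couples to Gs proteins. It did not pass the test between regions in the fit without pairing. Its CPM with TE were 21.8, 21.1, 17.6 and 5.40 in CA1, 2.95, 8.99, 13.9 and 3.91 in CA3 and 18.3, 29.0, 18.5 and 10.2 in DG of fresh-frozen sections. CA3 had the lowest mean and overlapped with both others. CA3 over DG was -1.23 ± 0.42 (adjusted p = 0.071, and 0.0256 without CA3 replicate 3) and CA1 over CA3 was 1.10 ± 0.42 (adjusted p = 0.176). Replicates with the same number deviated together in these 3 libraries, and with the replicate number as a block the 2 differences were -1.27 ± 0.39 (adjusted p = 0.0110) and 1.13 ± 0.38 (adjusted p = 0.0433). Without the replicates rich in choroid plexus markers, CA3 over DG was -0.40 ± 1.07 (adjusted p = 0.940) and CA1 over CA3 was 1.14 ± 0.48 (adjusted p = 0.286). Of the 12 UMIs of Drd1 in formalin-fixed frozen sections, 11 were in DG, which had 7.45, 16.3, 12.4 and 18.3 CPM, 1 was in CA3 and none was in CA1. The count of 0 in CA1 allows up to 7.12 CPM. With HCl the means of Drd1 were 13.0 ± 4.08 CPM in CA1 (SD, n = 4), 7.04 ± 2.20 in CA3 and 12.1 ± 7.10 in DG, without a call.

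Adora1 encodes the adenosine A1 receptor, which couples to Gi and lowers transmitter release. It was higher in CA3 than in DG in both fresh-frozen conditions and in formalin-fixed frozen sections, and higher than in CA1 in 2 of these. With HCl its CPM were 234, 199.99, 229 and 110.0 in CA1, 383, 412, 360.5 and 313 in CA3 and 207, 175, 161 and 188 in DG. All CA3 replicates lay above all others, and CA1 overlapped DG. CA3 over DG was 1.05 ± 0.15 (2.07-fold, adjusted p = 4.19e-05) and CA1 over CA3 was -0.89 ± 0.17 (1.86-fold lower in CA1, adjusted p = 0.000502). In formalin-fixed frozen sections the values were 464, 276, 307 and 277 in CA1, 529.6, 479.9, 548 and 758 in CA3 and 239, 221, 231 and 239 in DG. The regions did not overlap, with CA3 highest, CA1 between and DG lowest. CA3 over DG was 1.28 ± 0.20 (2.43-fold, adjusted p = 1.55e-08), CA1 over CA3 was -0.82 ± 0.21 (adjusted p = 0.00326) and CA1 over DG was 0.42 ± 0.22 without passing the test (adjusted p = 0.291).

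With TE in fresh-frozen sections Adora1 had 261, 209, 244 and 197 CPM in CA1, 305, 354, 312 and 287 in CA3 and 205, 194, 218 and 190.2 in DG. CA3 was again above every replicate of CA1 and DG. CA3 over DG was 0.69 ± 0.15 (adjusted p = 0.00229). Without the replicates rich in choroid plexus markers, which left 1 DG replicate, it was 0.67 ± 0.32. CA1 over CA3 was -0.47 ± 0.15, just outside the threshold (adjusted p = 0.0752). With the replicate number as a block CA1 over CA3 was -0.47 ± 0.13 with an adjusted p of 0.00652, and it had 0.0479 with DESeq2 and 0.0454 with the filter of filterByExpr. Without the replicates rich in choroid plexus markers CA1 over CA3 was -0.43 ± 0.17 (adjusted p = 0.218). In paraffin sections the values were 107, 216, 311 and 389.6 in CA1, 256, 222, 293 and 351 in CA3 and 183, 267, 121 and 249 in DG. The regions overlapped, and CA3 over DG was 0.51 ± 0.30 (adjusted p = 0.458).

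Cnr1 encodes the CB1 cannabinoid receptor, known in the hippocampus above all from interneurons that express cholecystokinin and, at lower levels, from pyramidal cells and mossy cells. Its regional means lay close together. In fresh-frozen sections with TE they were 211 ± 31.4 CPM in CA1 (SD, n = 4), 208 ± 30.3 CPM in CA3 and 171 ± 29.4 CPM in DG. The replicates overlapped, and CA1 over DG was 0.36 ± 0.17 (adjusted p = 0.198) without the block and 0.39 ± 0.13 (adjusted p = 0.0185) with the replicate number as a block. Without the replicates rich in choroid plexus markers, which left 1 DG replicate, it was 0.04 ± 0.29 (adjusted p = 0.973). With HCl, CA1 had 276, 148, 170.2 and 157 CPM, CA3 had 165, 178, 136 and 171 and DG had 108, 113, 117 and 209. Of the DG replicates, 3 lay below all of CA1 and CA3, and the fourth, with the fewest UMIs in total, lay above all but 1 of the CA1 values. CA1 over DG was 0.56 ± 0.22 (adjusted p = 0.0683), 0.67 (adjusted p = 0.0457) without CA1 replicate 2 and 0.76 (adjusted p = 0.0123) without DG replicate 4, but 0.20 ± 0.24 (adjusted p = 0.644) without the replicates rich in choroid plexus markers. The summed CPM of 10 interneuron markers with TE in fresh-frozen sections were 1967 to 2879 in CA1, 1704 to 2573 in CA3 and 1348 to 1773 in DG, and with HCl 1652 to 1947, 1393 to 1856 and 1432 to 1743, with no marker at 0. Their part in the level of Cnr1 was not tested. Formalin-fixed frozen sections had means of 264 ± 100.3 CPM of Cnr1 in CA1, 160.1 ± 34.5 in CA3 and 219.7 ± 77.8 in DG, and paraffin sections had 149 ± 46.2, 95.1 ± 22.7 and 117 ± 31.3 CPM. The regions overlapped in both conditions, and no difference between regions was called in either.

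Adra1a encodes the alpha-1A adrenergic receptor, a Gq-coupled receptor for noradrenaline. Fresh-frozen sections with TE had 16.1, 30.1, 35.1 and 13.5 CPM in CA1, 5.90, 16.2, 16.1 and 17.6 in CA3 and 24.4, 30.7, 26.8 and 27.2 in DG. The DG replicates were close to each other and above all of CA3, whereas CA1 overlapped both. CA3 over DG was -0.91 ± 0.33 (adjusted p = 0.0989) without the block and -0.93 ± 0.31 (adjusted p = 0.0256) with the replicate number as a block. Without the replicates rich in choroid plexus markers, which left 1 DG replicate, it was -1.04 ± 0.71. With HCl the means were 8.52 ± 6.26 CPM in CA1, 8.86 ± 5.76 in CA3 and 17.7 ± 8.46 in DG, and no comparison passed the test. In formalin-fixed frozen sections CA1 had 14.5, 11.1, 25.6 and 18.4 CPM, from 1 to 3 UMIs each, which were above the 4 DG replicates without passing the test (1.86 ± 0.98, adjusted p = 0.291).

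Whether a difference between regions itself differed between the 4 conditions was asked by 1 test of the interaction per gene over all 48 replicates. No receptor was called, where 2.69% of all 18884 genes tested were. At an unadjusted p under 0.05 there was 1, Adra1a, and DESeq2 also called none. The adjusted p-values were 0.339 for Adra1a, 0.449 for Htr2c, 0.556 for Chrm3, 0.603 for Adora1 and 0.776 for Htr1a. Hence the presence of a call in one condition and its absence in another, as for Htr2c and Htr4, was not shown to be a difference between the conditions.

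Conditions were compared across the 3 regions, on 24 replicates with region as a covariate, in 3 steps named by permeabilization, fixation of the tissue and embedding. By the study's protocol all sections, fresh-frozen ones included, were also fixed with PFA after sectioning, and paraffin sections passed through further solvents. No label says whether the conditions share mice. These comparisons share groups, with fresh-frozen TE sections in the first 2 and formalin-fixed frozen sections in the last 2. Of the 9 receptors, 5 were called between HCl and TE permeabilization of fresh-frozen sections (30.6% of all 18164 genes tested), 6 between formalin-fixed and fresh-frozen sections with TE (48.7% of 15878 genes) and 6 between paraffin and frozen sections of formalin-fixed tissue (28.0% of 12189 genes). The median log2 fold change of all genes tested was 0.10, -0.39 and 0.05 in the 3 comparisons. With another scaling in edgeR it was 0.24 with library totals alone in the first, -0.34 with library totals alone and -0.42 with DESeq2 size factors in the second, and 0.22 with DESeq2 size factors in the third. The fit of DESeq2 gave 0.15, -0.19 and 0.26. The filter on low counts moved it as well, to 0.02, -0.05 and -0.02 with filterByExpr and to 0.26, -0.43 and 0.46 with no filter. Each change is therefore also given relative to the median of the genes tested.

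**Figure D4:**
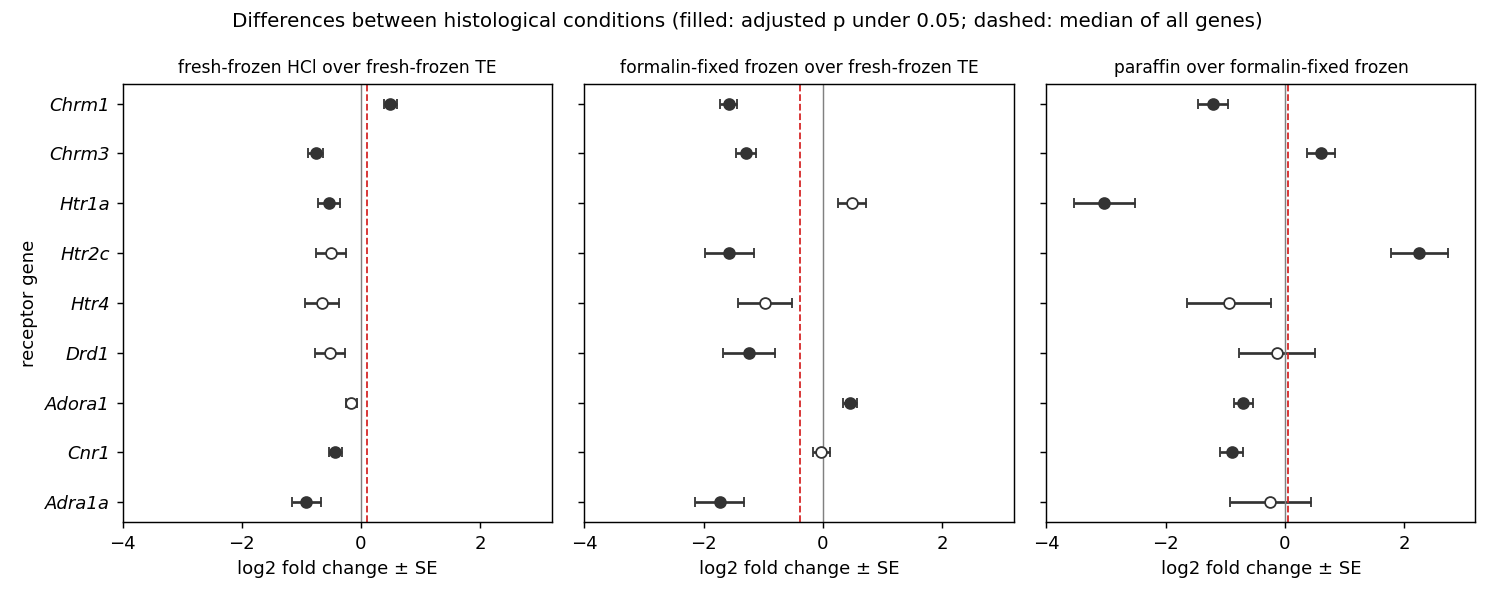
Log2 fold change with its standard error (horizontal axes) of each receptor (vertical axis) for HCl over TE in fresh-frozen sections, formalin-fixed frozen over fresh-frozen sections with TE, and paraffin over formalin-fixed frozen sections, each over 24 replicates; filled points have an adjusted p under 0.05 and the dashed line is the median of all genes tested. Chrm1 lies right of the median in the first panel and left of it in the other 2, and Htr1a lies at -3.03 in the third.

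Chrm1 changed with every step. Its CPM over the 12 replicates of a condition ran from 368 to 762 CPM with a median of 488 with HCl, from 248 to 409 CPM with a median of 328 with TE in fresh-frozen sections, from 37.9 to 234 CPM with a median of 111 in formalin-fixed frozen sections and from 0 to 131 CPM with a median of 45.8 in paraffin sections. The fresh-frozen replicates all lay above the fixed ones. HCl over TE was 0.49 ± 0.10 (0.39 relative to the median of all genes, adjusted p = 0.000211), formalin-fixed over fresh-frozen was -1.58 ± 0.14 (-1.19 relative to the median, adjusted p = 3.73e-17) and paraffin over formalin-fixed frozen was -1.21 ± 0.26 (-1.25 relative to the median, adjusted p = 4.43e-05). Chrm3 was lower with HCl than with TE, at -0.76 ± 0.12 (-0.86 relative to the median, adjusted p = 1.18e-06), so that the 2 muscarinic receptors moved in opposite directions between the permeabilizations under each scaling. Formalin-fixed over fresh-frozen was -1.29 ± 0.16 for Chrm3 (-0.90 relative to the median, adjusted p = 1.45e-10). Paraffin over formalin-fixed frozen was 0.61 ± 0.24 (0.56 relative to the median, adjusted p = 0.0432), a call that was lost in 10 of 32 alternatives, with adjusted p-values of up to 0.0837. Those were no filter on low counts (0.0806), leaving out the replicates rich in choroid plexus markers (0.0703) and leaving out 1 replicate, which was CA3 replicate 1 or 3 or DG replicate 3 of formalin-fixed frozen sections (0.0773, 0.0626 and 0.0624) or CA1 replicate 3, CA3 replicate 2, 3 or 4 or DG replicate 4 of paraffin sections (0.0837, 0.0569, 0.0523, 0.0721 and 0.0535).

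Among the serotonin receptors, Htr1a ran from 7.06 to 119 CPM with a median of 40.7 in formalin-fixed frozen sections and from 0 to 25.1 CPM with a median of 0 in paraffin sections. The latter rested on 5 UMIs in all 12 replicates against 77 in the former. Its log2 fold change of paraffin over formalin-fixed frozen was -3.03 ± 0.52 (-3.07 relative to the median, 8.15-fold lower, adjusted p = 2.42e-07), and it kept its call in all 31 alternatives. Formalin-fixed over fresh-frozen was 0.50 ± 0.23 for Htr1a (0.88 relative to the median, adjusted p = 0.0699, and 0.0295 without formalin-fixed frozen CA3 replicate 2). It was called with filterByExpr (0.66 ± 0.23, adjusted p = 0.0110), library totals alone (0.57 ± 0.23, adjusted p = 0.0363) and the replicate block (adjusted p = 0.0370), and was 0.36 ± 0.26 (adjusted p = 0.287) without the replicates rich in choroid plexus markers. HCl over TE was -0.54 ± 0.19 for Htr1a (-0.64 relative to the median, adjusted p = 0.0237). The latter call was lost with DESeq2 (0.0529), with library totals alone (0.106) and without HCl CA1 replicate 1 (0.0799), TE CA1 replicate 1 (0.0608) or TE CA3 replicate 1 (0.0508). Htr2c went the other way from formalin-fixed frozen to paraffin sections, from 13 UMIs and a median of 7.26 CPM to 52 UMIs and a median of 23.2 CPM. Its log2 fold change was 2.26 ± 0.47 (2.21 relative to the median, 4.79-fold higher, adjusted p = 3.68e-05). Without the replicates rich in choroid plexus markers it was 2.08 ± 0.54 (adjusted p = 0.00113). Formalin-fixed over fresh-frozen was -1.57 ± 0.41 for Htr2c (-1.18 relative to the median, adjusted p = 0.000915). HCl over TE was -0.50 ± 0.26 (adjusted p = 0.137, and 0.0137 without HCl CA1 replicate 1). Htr4 had -0.66 ± 0.29 for HCl over TE, -0.97 ± 0.45 for formalin-fixed over fresh-frozen and -0.93 ± 0.71 for paraffin over formalin-fixed frozen, with adjusted p-values of 0.0767, 0.0647 and 0.338. The first was 0.0425 without HCl CA3 replicate 2 and 0.0344 without TE CA3 replicate 3, but 0.641 without the replicates rich in choroid plexus markers, where the log2 fold change was -0.28 ± 0.38. The second lay between 0.0249 and 0.0460 without any 1 of 9 replicates, which were CA1 replicates 2 and 4, CA3 replicates 1 and 3 and DG replicates 1 and 3 of fresh-frozen TE sections and CA3 replicate 3 and DG replicates 2 and 3 of formalin-fixed frozen sections. It was 0.245 without the replicates rich in choroid plexus markers, where the log2 fold change was -0.88 ± 0.60.

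Adora1 was the only receptor called higher in formalin-fixed than in fresh-frozen sections with TMM scaling and the filter of 10 UMIs, at 0.45 ± 0.11 (0.84 relative to the median, adjusted p = 0.000529), and its levels ran from 190.2 to 354 CPM with a median of 231 with TE in fresh-frozen sections and from 221 to 758 CPM with a median of 292 in formalin-fixed frozen sections. The 2 conditions overlapped. Within DG the 4 formalin-fixed frozen replicates lay above the 4 fresh-frozen ones, with means of 232 ± 8.13 and 202 ± 12.5 CPM (SD, n = 4). In paraffin sections Adora1 was lower again, at -0.70 ± 0.16 against formalin-fixed frozen sections (-0.74 relative to the median, adjusted p = 0.000294), and HCl over TE was -0.16 ± 0.10 (adjusted p = 0.221). Cnr1 differed between HCl and TE by -0.43 ± 0.11 (-0.53 relative to the median, adjusted p = 0.00224) and between paraffin and formalin-fixed frozen sections by -0.89 ± 0.20 (-0.94 relative to the median, adjusted p = 9.3e-05). Between formalin-fixed and fresh-frozen sections its log2 fold change was -0.02 ± 0.14, and its sign changed with the scaling. Adra1a was lower with HCl than with TE, at -0.92 ± 0.24 (-1.02 relative to the median, adjusted p = 0.00226), and lower in formalin-fixed than in fresh-frozen sections, at -1.73 ± 0.41 (-1.34 relative to the median, adjusted p = 0.000265), where the 12 formalin-fixed replicates held 11 UMIs in all. Drd1 was lower in formalin-fixed than in fresh-frozen sections, at -1.24 ± 0.44 (-0.85 relative to the median, adjusted p = 0.0142). Without the replicates rich in choroid plexus markers this change was -1.26 ± 0.57 (adjusted p = 0.0633). Markers of other cells moved with the condition as well. In CA1, 6 astrocyte markers summed to 2485 to 3284 CPM in fresh-frozen sections with TE and 498 to 989 CPM in formalin-fixed frozen sections, and 5 oligodendrocyte markers to 7271 to 15574 CPM in formalin-fixed frozen and 12502 to 21258 CPM in paraffin sections, with none of the oligodendrocyte markers and only Aldh1l1 of the astrocyte markers, in formalin-fixed frozen CA3 and paraffin CA1, at 0. Their part in the changes of the receptors was not tested.

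Of 34 other receptors for acetylcholine, serotonin, dopamine, adenosine, endocannabinoids, noradrenaline and histamine, most did not pass a test between regions. Between CA1 and DG, 2 of 18 tested were higher in CA1 and none was lower with HCl, with a median log2 fold change of 0.75 against 0.03 for all genes, and 3 of 17 were higher and none lower with TE in fresh-frozen sections, with a median of 1.01 against 0.01. In formalin-fixed frozen and paraffin sections none of the 8 and none of the 3 tested were called. Of all genes, 17.0%, 10.1%, 8.14% and 3.29% were called in these 4 comparisons, in either direction. Between CA1 and CA3 the counts were 1 of 18 higher with HCl, 3 of 17 with TE in fresh-frozen sections, 1 of 6 in formalin-fixed frozen and 0 of 2 in paraffin sections, and none was lower, beside 9.13%, 4.40%, 7.20% and 2.36% of all genes called. Between CA3 and DG, 1 was higher and 1 lower of 16 with TE in fresh-frozen sections, beside 7.91% of all genes, and none was called in the other conditions. Besides Htr1b and Htr1f the genes behind these counts, named here after their values were seen, were Adra2c between CA1 and DG, Drd5 and Hrh3 between CA1 and CA3, and Drd5 and Htr2a between CA3 and DG, each with TE in fresh-frozen sections. Between conditions, 1 of 22 was higher and 2 lower for HCl over TE, 5 of 19 were lower and none higher for formalin-fixed over fresh-frozen, and 1 of 10 was higher and 2 lower for paraffin over formalin-fixed frozen, where 30.6%, 48.7% and 28.0% of all genes were called. Chrm4 and Drd3, which are listed among the 34, were not among the genes counted and could not be tested.

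Htr1b and Htr1f, Gi-coupled serotonin receptors of the same branch as Htr1a, were called in the same direction in at least 2 conditions. Htr1b had 37.9, 28.6, 21.6 and 13.5 CPM in CA1, 5.90, 6.30, 10.7 and 3.91 in CA3 and 2.03, 3.41, 8.39 and 10.2 in DG with TE in fresh-frozen sections. CA1 lay above both other regions in all 4 replicates, with 2.25 ± 0.45 over DG (adjusted p = 0.000493) and 1.90 ± 0.37 over CA3 (adjusted p = 0.00155). With HCl the differences were 2.74 ± 0.64 (adjusted p = 0.00195) and 2.44 ± 0.56 (adjusted p = 0.00412), and in formalin-fixed frozen sections CA1 over CA3 was 3.64 ± 0.99 (adjusted p = 0.00623), with 19 UMIs in CA1, none of them in replicate 1, and 1 in CA3. With HCl, CA1 replicate 4 had no UMI of Htr1b, so that CA1 overlapped both other regions, and DG held 5 UMIs. Htr1f was higher in CA1 than in DG, with 12.6, 12.1, 8.10 and 8.09 CPM against 0, 0, 3.36 and 0 with TE in fresh-frozen sections (3.15 ± 0.78, adjusted p = 0.00456) and 2.24 ± 0.62 with HCl (adjusted p = 0.00921). The 2 DG UMIs of Htr1f with TE in fresh-frozen sections came from 1 replicate.

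**Figure D5:**
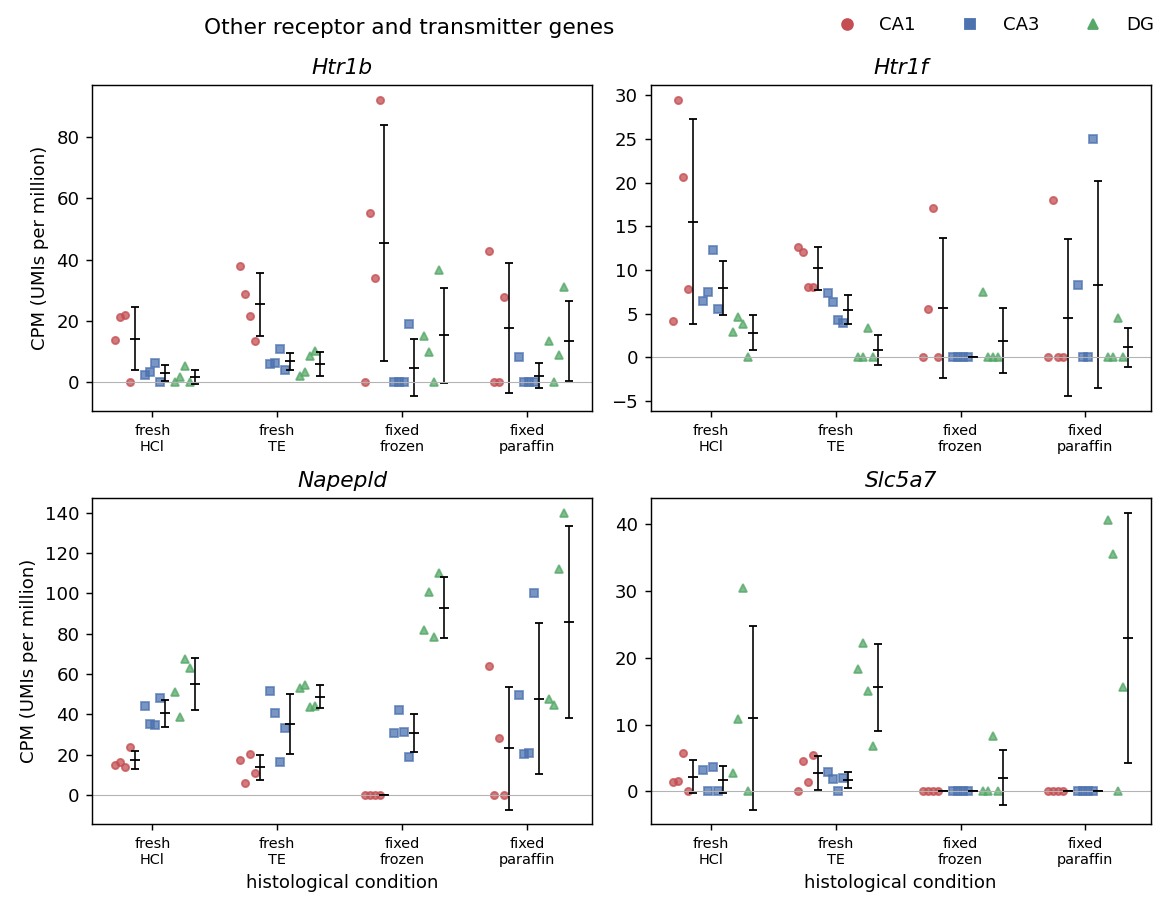
CPM (vertical axes, scaled separately for each gene) of Htr1b, Htr1f, Napepld and Slc5a7 in the 4 histological conditions, with 1 point per replicate, circles for CA1, squares for CA3 and triangles for DG, and the mean with its SD (n = 4) as a bar. In the fresh-frozen conditions Htr1b and Htr1f had their highest mean in CA1, and Napepld and Slc5a7 in DG.

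Of 26 genes that make, carry or degrade these transmitters, every one called between CA1 and DG was lower in CA1. Between CA1 and DG, 7 of 18 tested were lower with HCl, 3 of 16 with TE in fresh-frozen sections, 2 of 12 in formalin-fixed frozen and 1 of 13 in paraffin sections, and none was higher, with medians of -0.50, -0.16, -0.46 and -0.50 against 0.03, 0.01, -0.11 and -0.18 for all genes. The shares of all genes called in these comparisons were 17.0%, 10.1%, 8.14% and 3.29%. Napepld, an enzyme of the synthesis of the endocannabinoid anandamide, had 17.2, 6.03, 20.3 and 10.8 CPM in CA1 and 52.9, 54.5, 43.6 and 44.2 in DG with TE in fresh-frozen sections, without overlap (-1.75 ± 0.31, adjusted p = 8.44e-05). It had no UMI in CA1 of formalin-fixed frozen sections and 82.0, 101, 78.4 and 110.1 CPM in DG (adjusted p = 1.28e-10). Slc29a1, which moves adenosine across the membrane, was lower in CA1 than in DG with HCl (-1.48 ± 0.30, adjusted p = 0.000398), and in formalin-fixed frozen and paraffin sections it had no UMI in CA1 against 17 and 21 in DG (adjusted p = 0.0156 and 0.0425). It was -0.85 ± 0.38 with TE in fresh-frozen sections, without passing the test (adjusted p = 0.175). Adk, the kinase that removes adenosine, was lower in CA1 than in DG at -0.73 ± 0.21 with HCl (adjusted p = 0.0136) and -0.73 ± 0.20 with TE in fresh-frozen sections (adjusted p = 0.0119). Slc5a7, the choline transporter of cholinergic neurons, had 18.3, 22.1, 15.1 and 6.79 CPM in DG and 2.95, 1.80, 0 and 1.95 in CA3 with TE in fresh-frozen sections, without overlap (-3.22 ± 0.60 for CA3 over DG, adjusted p = 0.000471, and -2.71 ± 0.60 for CA1 over DG, adjusted p = 0.00155). The lowest of these DG values was in replicate 4, the only DG replicate there not rich in choroid plexus markers. With HCl the DG values of Slc5a7 were 2.84, 10.9, 30.5 and 0 CPM, which overlapped both other regions. The highest of them was in replicate 3, where the choroid plexus markers summed to 92.7 CPM. The part of these markers in the values of the transmitter genes was not tested. Abhd6, a hydrolase of the endocannabinoid 2-arachidonoylglycerol, was higher in CA3 than in DG at 0.55 ± 0.17 with HCl (adjusted p = 0.0398) and 0.68 ± 0.19 with TE in fresh-frozen sections (adjusted p = 0.0197).

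Genes whose pattern was most like that of a receptor were ranked by Pearson's correlation of the mean log2(CPM + 10) over the 12 groups, among the 9006 genes that averaged 5 or more UMIs in a replicate. These 12 points share libraries and depths, and the values are a description without a test. For Chrm1 the 3 highest were Fam120b (r = 0.974), Gsk3a (0.962) and Dmwd (0.960), for Chrm3 Dusp5 (0.896), Eps15 (0.878) and ENSMUSG00000106106 (0.872), and for Adora1 Pgm2l1 (0.919), Stmn2 (0.876) and Dnajb1 (0.875). Fkbp1a (0.931), Prss12 (0.921) and Txn2 (0.914) were nearest to Htr1a, Ciapin1 (0.912), S100pbp (0.882) and Rcn2 (0.871) to Htr2c, Rab27b (0.930), Adam10 (0.927) and Myt1l (0.926) to Cnr1, and Rprd1b (0.895), Mfsd4a (0.877) and Nol8 (0.871) to Adra1a. Among the receptors themselves the highest value was 0.884, between Htr1a and Cnr1, and the lowest -0.586, between Htr2c and Adora1. Htr4 and Drd1 had a mean of 3.56 and 4.56 UMIs per replicate and were not ranked.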

How the data were processed

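Polyadenylated RNA of CA1, CA3 and DG was read by PIC and CEL-seq2 in 48 replicates, 4 for each of 12 groups. The authors deposited UMI counts per gene, which were raw and not normalised. Per the labels and the study's methods, UMIs of 6 bases, which allow 4096 different ones, were taken from the reads with UMI-tools 1.0.0, reads were trimmed, mapped to GRCm38 with HISAT2 2.1.0 and assigned to genes with featureCounts 1.6.4, and UMIs were counted as distinct sequences per gene. A replicate had at most 626 UMIs of any of the 9 receptors. The annotation release behind the counts is not given in the sources used here.

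From these counts CPM were computed over the total of each replicate, and tests were made with edgeR 4.0.16 in R 4.3.3 (quasi-likelihood, TMM scaling, genes with at least 10 UMIs over the replicates of the fit, Benjamini-Hochberg adjustment over all genes tested, threshold 0.05). The 12 fits between regions held 8 replicates, the 3 between conditions held 24 with region as a covariate, and the interaction was fitted over 48. Fold changes are the first group over the second. Their standard errors in edgeR were computed as the absolute log2 fold change over the square root of the F statistic, and are therefore approximate. Limits for a count of 0 rest on 3 counts. The script was tested on simulated data.

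Replicate numbers come from the titles. Deviations from the group means were compared between same-numbered replicates, and every correlation was over 0.1 between the 3 regions of fresh-frozen TE sections (lowest 0.180 for CA1 and CA3, 0.219 for CA1 and DG, and 0.213 for CA3 and DG) and between CA3 and DG of fresh-frozen HCl sections (lowest 0.228). Across conditions, every such correlation was also over 0.1 for CA3 and DG with HCl against each region with TE in fresh-frozen sections (lowest 0.171 for DG and DG). The numbers were taken to pair the replicates of these groups. Replicate 4 had the fewest UMIs in every library, and whether a shared number stands for more than a shared depth was not tested. Counts of called receptors come from fits without the block. Fits with the replicate number as a block are given where they change a call.

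Alternatives were DESeq2 1.42.0, DESeq2 size factors in edgeR, library totals alone, no filter on low counts, the filter of filterByExpr, the replicate block, the remaining region in the fit, mitochondrial genes left out and each replicate left out. The 9 receptors and the lists of other receptors, transmitter genes and markers were chosen with earlier results of these data known. Other genes are named where they were called in the same direction between the same 2 regions in at least 2 conditions, or were among the 3 most alike. Adra2c, Drd5, Hrh3 and Htr2a fall outside this rule and were named after their values were seen. Promoters were read from the RefSeq table, and tables and figures were made with Python 3.11.15, pandas 2.3.3 and matplotlib 3.10.9.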

Additional observations from a re-analysis of the deposited data

Results flagged for a closer look

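In 6 of 82 groups of 4 replicates 1 replicate lay farther from the others than Dixon's test allows at its 95% level, and chance alone gives about 1 in 20. Chrm1 in CA3 of paraffin sections had 24.8 CPM in replicate 1, from 3 UMIs, and 125 CPM or more in the other 3. Htr2c in CA3 with HCl had 12.9 CPM in replicate 1, with 7.50 CPM next. Htr4 in DG of fresh-frozen sections with TE had 35.8 CPM in replicate 2, with 18.3 CPM next, and both calls of Htr4 were lost without it, as they also were under other alternatives given with that gene. Adora1 in CA1 of formalin-fixed frozen sections had 464 CPM in replicate 1, with 307 CPM next. Cnr1 in DG with HCl had 209 CPM in replicate 4, with 117 CPM next. Adra1a in CA3 of fresh-frozen sections with TE had 5.90 CPM in replicate 1, with 16.1 CPM next. Why these replicates stood apart was not tested.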

How the results depend on the processing

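No fold change of a called receptor changed sign under any alternative. The number of receptors called moved under several alternatives, and apart from the filter of filterByExpr the cause was not tested. With DESeq2 it went from 2 to 1 for CA1 over DG and for CA1 over CA3, both with HCl and in formalin-fixed frozen sections, and from 1 to 2 for CA1 over CA3 with TE in fresh-frozen sections. It also went from 4 to 3 for CA1 over DG and CA3 over DG with TE in fresh-frozen sections and from 5 to 4 for HCl over TE. The filter of filterByExpr gave 1 in place of 2 for both comparisons in formalin-fixed frozen sections and 2 in place of 1 for CA1 over CA3 with TE in fresh-frozen sections, where it gave 3 in place of 4 for both other comparisons. It also gave 4 in place of 6 for both comparisons with formalin-fixed frozen sections between conditions. The receptors missing from these counts were removed by the filter and were not tested. They were Htr1a between regions in formalin-fixed frozen sections and Htr4 with TE in fresh-frozen sections. Between conditions they were Htr2c, Drd1 and Adra1a for formalin-fixed over fresh-frozen, where Htr1a was gained. For paraffin over formalin-fixed frozen they were Htr1a and Htr2c. Formalin-fixed over fresh-frozen had 7 in place of 6 with DESeq2 size factors in edgeR (Htr4 gained) and with library totals alone (Htr1a gained), HCl over TE had 4 in place of 5 with library totals alone (Htr1a lost), and paraffin over formalin-fixed frozen had 5 in place of 6 with no filter (Chrm3 lost). Leaving out the 9 replicates with over 1000 CPM of choroid plexus markers, an alternative chosen after seeing the data, left 1 of 4 calls for CA1 over DG and 0 of 4 for CA3 over DG with TE in fresh-frozen sections, where DG kept 1 replicate and the calls over all genes went from 1420 to 270 and from 1138 to 80.

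With the replicate number as a block the count was 3 in place of 1 for CA1 over CA3 with TE in fresh-frozen sections and 1 in place of 0 for CA3 over DG in paraffin sections, where the samples share only a number and the call was Htr2c (adjusted p = 0.0768 without and 0.0404 with the block). The same holds for Cnr1, CA1 over DG with HCl (adjusted p = 0.0235), and for formalin-fixed over fresh-frozen, Htr1a (0.0370) and Htr4 (0.0490). Over all group pairs 10 of 66 had every same-number correlation over 0.1, and 140 of 264 replicates correlated best with their own number. Apart from these and the blocked values in the report, the block changed no call.

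Without 1 replicate the counts ranged, with HCl, TE in fresh-frozen, formalin-fixed frozen and paraffin sections in turn, from 1 to 3, 3 to 4, 1 to 2 and 0 to 1 for CA1 over DG, from 2 to 2, 2 to 4, 1 to 1 and 0 to 1 for CA3 over DG, and from 1 to 2, 1 to 1, 1 to 2 and 0 to 0 for CA1 over CA3. Between conditions they ranged from 4 to 6, 6 to 7 and 5 to 6 in the order of the report, and for the interaction from 0 to 0. The number of receptors with the same highest region in all 4 conditions, 4, ranged from 3 to 6. Depth limited formalin-fixed frozen and paraffin sections most, where Htr4, Drd1 and Adra1a had 4 to 13 UMIs per condition.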
